A study of Mus musculus with 6 samples.

Results

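Small leucine-rich proteoglycans (SLRPs) are secreted proteins of the extracellular matrix, and 10 of their genes were taken by gene symbol from a table of read counts: Dcn, Bgn, Aspn, Fmod, Lum, Prelp, Kera, Omd, Epyc and Ogn. They were 10 of the 48440 genes listed. Of the 10, 9 had enough reads to be among the 15257 genes tested, and Kera had not. The libraries were labelled as subcutaneous tissue. In the paper it is murine tissue around cartilage engineered from rabbit BMSCs (BEC) and wrapped in an electrospun PCL/collagen membrane. According to the supplement, samples were harvested together with the entangled murine tissue. Whether RNA of the rabbit graft was in the libraries was not tested. The hosts were male BALB/c nude mice, which lack a functional thymus, and the tissue was taken 12 weeks after implantation. The labels give no age, and the supplement gives that of the mice at purchase, some weeks after birth. In 3 samples the membrane held no drug (0%-Axitinib group), and in 3 samples it held axitinib, an inhibitor of the VEGF receptor tyrosine kinases, at 3% of the polymer weight (3%-Axitinib group). The labels call the 0%-Axitinib samples untreated, and they were read as BEC in a drug-free membrane because the protocol given for every sample describes membranes with 0% or 3% of axitinib only. A pair of constructs of the same group was placed in each mouse according to the supplement, and the mouse of a sample is not given, so p-values measure the spread between these samples.

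Each SLRP core protein is a curved stack of leucine-rich repeats that binds collagen, and most members carry glycosaminoglycan chains. Class I members carry chondroitin or dermatan sulfate, with the exception of asporin, and class II members carry keratan sulfate or sulfated tyrosines. They set the diameter and spacing of collagen fibrils in skin, tendon, cornea, cartilage and bone, and several of them bind growth factors of the TGF-beta family.

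The samples had between 9225518 and 18403795 reads on genes. A count of 3, used as the limit of detection, stood for 0.157, 0.175 and 0.163 CPM in replicates 1, 2 and 3 of the 0%-Axitinib group and for 0.330, 0.273 and 0.174 CPM in those of the 3%-Axitinib group. CPM are read counts scaled to a common number of reads on genes, here after TMM scaling of the libraries. Unmapped reads made up 5.47%, 3.84% and 14.9% of the 0%-Axitinib libraries and 48.4%, 29.2% and 16.8% of the 3%-Axitinib libraries, so every 3%-Axitinib library had the larger share. Their part in the results was not tested, and neither was the species of the reads.

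Some libraries stood apart in the markers of other cell types. The skeletal muscle list summed to 171, 19.8 and 29.4 CPM in the 0%-Axitinib replicates and to 15883, 44.0 and 8450 CPM in the 3%-Axitinib replicates, so muscle transcripts were abundant in replicates 1 and 3 of the 3%-Axitinib group and not in replicate 2. That replicate instead held the highest sum of the osteoblast and osteocyte list, with 13539 CPM against 1396 and 2686 CPM in replicates 1 and 3. Among the 0%-Axitinib samples, replicate 2 had 852 CPM of the keratinocyte list, where the other 5 samples had between 4.02 and 10.2 CPM, and replicate 3 had 6340 CPM of the neutrophil gene S100a8, where the others had at most 103 CPM. As for the labelled tissue, all 12 fibroblast markers were detected in every sample, with Pdgfra between 70.3 and 191 CPM.

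Of the 9 tested members, 2 were higher in the 3%-Axitinib group by the study's criterion, a fold change of at least 1.5 with an unadjusted p of at most 0.05, against 9.54% of all tested genes. These were Fmod and Omd, both of class II. No member was lower by this criterion in edgeR's test, against 11.7% of all tested genes. In DESeq2's Wald test, 3 members were higher by it (Fmod, Omd and Bgn), against 10.7% of all tested genes, and 1 was lower (Ogn), against 12.9%. With Benjamini-Hochberg adjustment over all tested genes, edgeR's quasi-likelihood test gave 0 of the 9 members an adjusted p of at most 0.05 (0.00655% of all tested genes), 2 members reached an unadjusted p of 0.05 or less (23.5% of all tested genes), and DESeq2's Wald test gave 1 member, Fmod, an adjusted p of at most 0.05 (12.8% of all tested genes). In 1 member, Bgn, the 3%-Axitinib samples were all above the highest 0%-Axitinib sample, against 14.7% of all tested genes, and in 0 members they were all below the lowest, against 16.6%. These counts rest on at most 3 genes each, and nothing particular to the family is read from them.

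The log2 fold change was above 0 for 8 of the 9 tested members, against 7352 of 15257 tested genes, and below 0 for Ogn. Its median was 0.84 over the members against -0.03 over all tested genes. The signs of the members were the same under the 4 scalings of the libraries that were tried. Members varied together within the 0%-Axitinib group, as given below, so their signs are not separate observations. Scaling by total counts moved the median of all tested genes to -0.16, and the genes meeting the criterion from 1456 higher and 1785 lower to 989 higher and 2448 lower. Under it Omd no longer met the criterion (log2 fold change 1.59) and Ogn did (-0.94), while Fmod met it under both. Fewer cells that express a gene and less of its RNA per cell cannot be told apart in these bulk samples.

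The summed CPM of the 10 members was 6478, 3646 and 2316 in the 0%-Axitinib replicates and 7821, 8888 and 6159 in the 3%-Axitinib replicates. The groups overlapped by the high sum of 0%-Axitinib replicate 1. As a share of the reads on genes, the members took 0.699%, 0.374% and 0.237% in the 0%-Axitinib group and 0.771%, 0.835% and 0.578% in the 3%-Axitinib group. Members varied together within the 0%-Axitinib group: replicate 1 had the highest CPM for all 10 members and replicate 3 the lowest for 9, Epyc being lowest in replicate 2. The 3%-Axitinib group had no such order, since replicate 2 was highest for 6 members, replicate 1 for 3 members and replicate 3 for Kera.

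**Figure D1:**
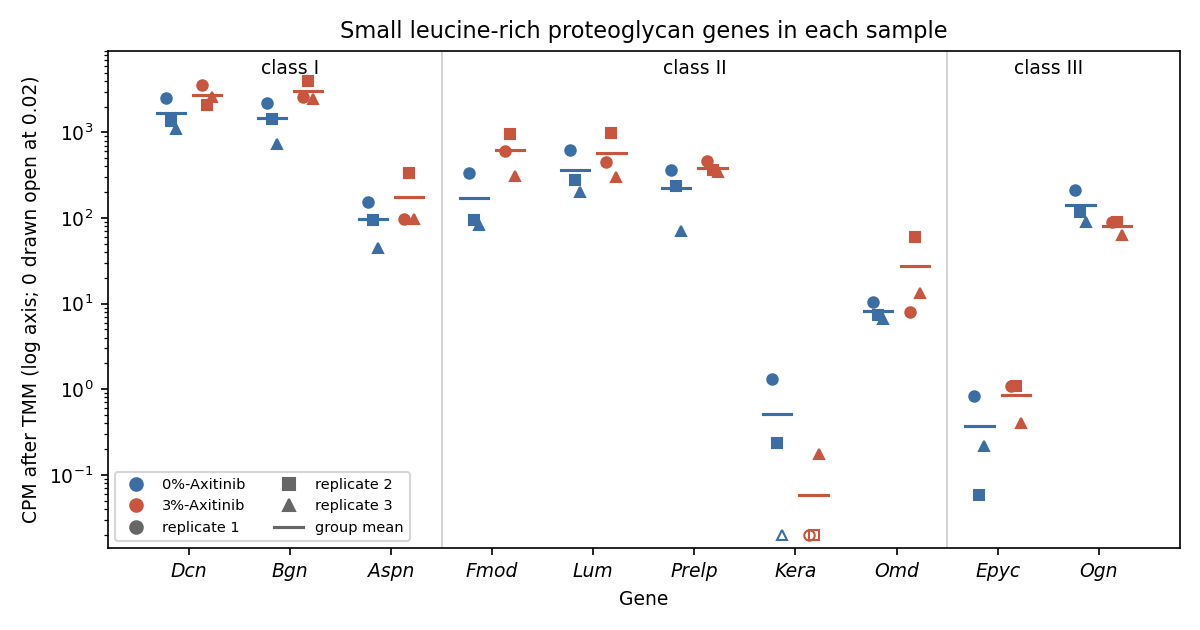
CPM after TMM scaling (log axis) of the 10 SLRP genes, ordered by class, in each sample of the 0%-Axitinib (blue) and 3%-Axitinib (red) groups, with marker shapes for the replicates, lines for group means and open symbols for samples without a read. The 3 points of each group are apart only for Bgn, and blue circles, 0%-Axitinib replicate 1, lead their group for every gene.

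Levels of different genes were compared as CPM per kb of merged exons. In the 0%-Axitinib group, Dcn (285 ± 133 CPM per kb, SD, n = 3 here and below), Bgn (242 ± 122) and Lum (149.9 ± 92.6) led the family. Prelp (61.5 ± 40.3), Ogn (54.9 ± 25.5), Fmod (51.8 ± 43.3) and Aspn (41.6 ± 23.2) followed, then Omd (3.60 ± 0.893), Kera (0.225 ± 0.305) and Epyc (0.145 ± 0.160). Neighbours in this order differed by more than the larger of their SDs only between Aspn and Omd and between Omd and Kera. Below 7 genes of graded level came Omd, and then Kera and Epyc near the limit of detection.

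In the 3%-Axitinib group the order of these levels was Bgn (493 ± 147 CPM per kb), Dcn (469 ± 128), Lum (236 ± 143), Fmod (189 ± 97.8), Prelp (107 ± 17.3), Aspn (74.3 ± 57.5), Ogn (31.6 ± 5.85), Omd (12.1 ± 12.8), Epyc (0.338 ± 0.156) and Kera (0.0254 ± 0.0440). Dcn and Lum, Ogn and Omd, and Epyc and Kera differed by more than the larger SD, and the other neighbours did not. In the 0%-Axitinib group the order of Dcn and Bgn rests on the length used: per kb of the longest transcript, Bgn led there, with 553 against 355 CPM per kb. In the 3%-Axitinib group Bgn led with either length, with 1129 against 584 CPM per kb of the longest transcript.

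Among 14616 tested genes with a known length, ranked by CPM per kb from the highest, Dcn took places 73, 164 and 286 in the 0%-Axitinib replicates and 77, 157 and 120 in the 3%-Axitinib replicates. Bgn took places 97, 158 and 426, and 129, 76 and 142. Both were among the most abundant transcripts of every library. Fmod stood at places 396, 1559 and 2063 in the 0%-Axitinib group and at 290, 188 and 534 in the 3%-Axitinib group, and Ogn at 483, 932 and 1496 and at 1489, 1411 and 2117. The places of Fmod and of Ogn overlapped between the groups.

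Among the class I genes, Dcn encodes decorin, which binds fibrillar collagen and TGF-beta with a single glycosaminoglycan chain. It was measured at 2545, 1364 and 1085 CPM in the 0%-Axitinib replicates and at 3548, 2070 and 2599 CPM in the 3%-Axitinib replicates. The groups overlapped, with 0%-Axitinib replicate 1 above 3%-Axitinib replicate 2. The log2 fold change was 0.72 (SE 0.43, adjusted p = 0.349 in edgeR's quasi-likelihood test, Benjamini-Hochberg adjustment), and without 0%-Axitinib replicate 1 it was 1.16 and met the criterion.

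Bgn, the gene of biglycan, which carries a pair of glycosaminoglycan chains and signals through Toll-like receptors once released from the matrix, lies on chromosome X apart from the other members. Its values were 2231, 1452 and 738 CPM in the 0%-Axitinib group and 2561, 4040 and 2426 CPM in the 3%-Axitinib group. Every 3%-Axitinib sample was above every 0%-Axitinib sample, by a narrow margin for replicate 3 of the 3%-Axitinib group over replicate 1 of the 0%-Axitinib group. The mean was 1474 ± 747 CPM against 3009 ± 896 CPM, with a log2 fold change of 1.03 (SE 0.48) and a 95% confidence interval from -0.11 to 2.17. Its adjusted p was 0.245 in edgeR's quasi-likelihood test with Benjamini-Hochberg adjustment. Bgn met the criterion in DESeq2's Wald test (adjusted p = 0.113, Benjamini-Hochberg) and, in edgeR's test, without 0%-Axitinib replicate 1, where the log2 fold change was 1.45.

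Aspn encodes asporin, which carries no glycosaminoglycan chain and competes with decorin for collagen. It was at 154, 94.8 and 44.9 CPM in the 0%-Axitinib group and at 96.2, 331 and 97.4 CPM in the 3%-Axitinib group. A single sample, 3%-Axitinib replicate 2, lay above the range of the 0%-Axitinib group, and the other 3%-Axitinib samples lay within it. The log2 fold change of 0.84 (SE 0.63, adjusted p = 0.439 in edgeR's quasi-likelihood test, Benjamini-Hochberg adjustment) became -0.024 without that sample, 0.49 without 0%-Axitinib replicate 3 and 1.32 without 0%-Axitinib replicate 1.

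Of the class II genes, Fmod encodes fibromodulin, a keratan sulfate proteoglycan that binds collagen and directs its cross-linking in tendon and cartilage. Its expression was 336, 94.9 and 82.7 CPM in the 0%-Axitinib replicates and 601, 959 and 313 CPM in the 3%-Axitinib replicates. The groups overlapped only because 0%-Axitinib replicate 1 was slightly above 3%-Axitinib replicate 3. The mean was 171 ± 143 CPM against 624 ± 323 CPM, a fold change of 3.64, the largest of the tested members. The log2 fold change was 1.87 (SE 0.67) with a 95% confidence interval from 0.29 to 3.44. The adjusted p was 0.162 in edgeR's quasi-likelihood test and 0.0290 in DESeq2's Wald test, both with Benjamini-Hochberg adjustment.

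Fmod met the criterion with all 6 samples, and the removal of any of 4 samples ended this. Without 0%-Axitinib replicate 2 or 3 its log2 fold change was 1.57 or 1.53, and without 3%-Axitinib replicate 1 or 2 it was 1.88 or 1.40, each short of the criterion. Without 0%-Axitinib replicate 1 or 3%-Axitinib replicate 3 it was 2.81 or 2.17 and met the criterion.

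Lum encodes lumican, which keeps collagen fibrils thin and evenly spaced in cornea and skin. It was at 625, 276 and 199.8 CPM in the 0%-Axitinib group and at 457, 973 and 303 CPM in the 3%-Axitinib group. The groups overlapped widely, and the log2 fold change was 0.66 (SE 0.58, adjusted p = 0.511 in edgeR's quasi-likelihood test, Benjamini-Hochberg adjustment). Without 3%-Axitinib replicate 2, the highest sample, it was 0.04, and without 0%-Axitinib replicate 1 it was 1.28.

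Prelp encodes prolargin, which ties basement membranes to the collagen beneath through its heparin-binding end. Its values were 359.8, 238 and 69.6 CPM in the 0%-Axitinib group and 459.6, 363 and 343 CPM in the 3%-Axitinib group. The 3%-Axitinib samples lay close together at the upper end, and 0%-Axitinib replicate 1 reached into them. The log2 fold change was 0.80 (SE 0.54, adjusted p = 0.394 in edgeR's quasi-likelihood test, Benjamini-Hochberg adjustment). Without 0%-Axitinib replicate 3, the lowest sample, it was 0.37, and without replicate 1 of that group 1.33. Prelp shares 350 exon bases with an antisense gene, Gm15851, and reads from these bases cannot be told apart, since the sources used here do not state whether counting used the strand.

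Omd, the gene of osteomodulin, a keratan sulfate proteoglycan of mineralized tissue, was at 10.4, 7.29 and 6.63 CPM in the 0%-Axitinib group and at 8.03, 60.2 and 13.4 CPM in the 3%-Axitinib group. A single library, 3%-Axitinib replicate 2, was far above the others, and replicate 1 of that group lay within the 0%-Axitinib range. The mean was 8.10 ± 2.01 CPM against 27.2 ± 28.7 CPM, a fold change of 3.36 and a log2 fold change of 1.75 (SE 0.73, 95% confidence interval from 0.01 to 3.48). The adjusted p was 0.210 in edgeR's quasi-likelihood test and 0.0816 in DESeq2's Wald test, both with Benjamini-Hochberg adjustment. With 3%-Axitinib replicate 2 left out, Omd had a log2 fold change of 0.41. The criterion was also missed without 0%-Axitinib replicate 1, 2 or 3, where the log2 fold change was 1.96, 1.67 or 1.62.

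The same library had the highest sum of the osteoblast and osteocyte list, of which 11 of 11 genes were tested and none was without reads. The list summed to 349, 279.7 and 751 CPM in the 0%-Axitinib replicates and to 1396, 13539 and 2686 CPM in the 3%-Axitinib replicates. Its most abundant gene, the bone sialoprotein gene Ibsp, reached 10536 CPM in 3%-Axitinib replicate 2 and had the highest log2 fold change of the list, 4.16 (2.53 without that sample), whereas the osteocalcin gene Bglap had the lowest, -1.27 (2.30 without 0%-Axitinib replicate 3). By the criterion 5 genes of the list were higher and none was lower. The median log2 fold change was 1.63. The part of these cells in the Omd result was not tested.

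Kera encodes keratocan, a keratan sulfate proteoglycan known from the cornea. It had 25, 4 and 0 reads in the 0%-Axitinib replicates and 0, 0 and 3 reads in the 3%-Axitinib replicates, too few to be tested. Most of its reads came from 0%-Axitinib replicate 1. By summed reads, 29 against 3, the level was 6.60 times as high in the 0%-Axitinib group after correction for depth, with a counting interval from 2.04 to 33.8 that does not cover the spread between samples. That ratio rests on the 25 reads of 0%-Axitinib replicate 1, since replicates 2 and 3 of the group had 4 and 0. A sample without a Kera read could have held up to the limit of detection given above.

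Of the class III genes, Epyc encodes epiphycan, a dermatan sulfate proteoglycan of growth plate cartilage. It had 16, 1 and 4 reads in the 0%-Axitinib replicates and 10, 12 and 7 reads in the 3%-Axitinib replicates, or 0.835, 0.0583 and 0.217 CPM and 1.10, 1.09 and 0.405 CPM. The groups overlapped by 0%-Axitinib replicate 1, and the log2 fold change was 1.16 (SE 0.90, adjusted p = 0.454 in edgeR's quasi-likelihood test, Benjamini-Hochberg adjustment). Without that replicate it was 2.53 and met the criterion, and without 0%-Axitinib replicate 2 it was 0.67. Epyc shares 1041 exon bases with Gm10754, a noncoding gene on the other strand, so its few reads are uncertain in origin.

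Ogn encodes osteoglycin, or mimecan, a small keratan sulfate proteoglycan of bone, cornea and the vessel wall. It was at 214, 118 and 89.6 CPM in the 0%-Axitinib replicates and at 88.8, 90.7 and 63.8 CPM in the 3%-Axitinib replicates. The 3%-Axitinib samples were at or below the level of the lowest 0%-Axitinib sample, replicate 3, which only 3%-Axitinib replicate 2 exceeded, by a small margin. The mean was 141 ± 65.4 CPM against 81.1 ± 15.01 CPM, and the log2 fold change of -0.80 (SE 0.35, 95% confidence interval from -1.63 to 0.04) was the only one below 0 among the tested members. The adjusted p was 0.227 in edgeR's quasi-likelihood test and 0.168 in DESeq2's Wald test, both with Benjamini-Hochberg adjustment. Ogn met the criterion in DESeq2's test, and in edgeR's test without 0%-Axitinib replicate 3 (-1.04) or without the filter on low counts (-0.84), and its log2 fold change was -0.36 without 0%-Axitinib replicate 1.

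Since the members varied together within the 0%-Axitinib group, their reads were also compared with each other inside each library, where scaling plays no part. For each read of Dcn there were 0.0843, 0.0867 and 0.0826 reads of Ogn in the 0%-Axitinib replicates and 0.0250, 0.0438 and 0.0246 in the 3%-Axitinib replicates. The 0%-Axitinib samples were nearly equal in this ratio although their Dcn and Ogn levels differed, and every 3%-Axitinib sample was far below them. The mean ratio was 0.0845 ± 0.00206 against 0.0311 ± 0.0110, 2.71 times as high in the 0%-Axitinib group.

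Against the 6 other members of at least 1 CPM the groups did not overlap in the reads of Ogn either, although the 0%-Axitinib samples were less alike. Per read of Fmod there were 0.638, 1.25 and 1.08 reads of Ogn in the 0%-Axitinib group and 0.148, 0.0947 and 0.204 in the 3%-Axitinib group, a ratio of means of 6.65. Per read of Bgn the values were 0.0961, 0.0814 and 0.121 against 0.0347, 0.0225 and 0.0263. Against Aspn, Lum, Prelp and Omd the groups were apart as well, with ratios of means of 2.503, 2.45, 3.78 and 2.91. Per read of Omd, the 3%-Axitinib replicates had 11.1, 1.51 and 4.75 reads of Ogn, so that ratio of means depends strongly on replicate 1. Of the 14335 tested genes of at least 1 CPM outside the family, 4.39% were likewise lower in every 3%-Axitinib sample relative to each of the 7 members, so the pattern was not limited to Ogn.

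**Figure D2:**
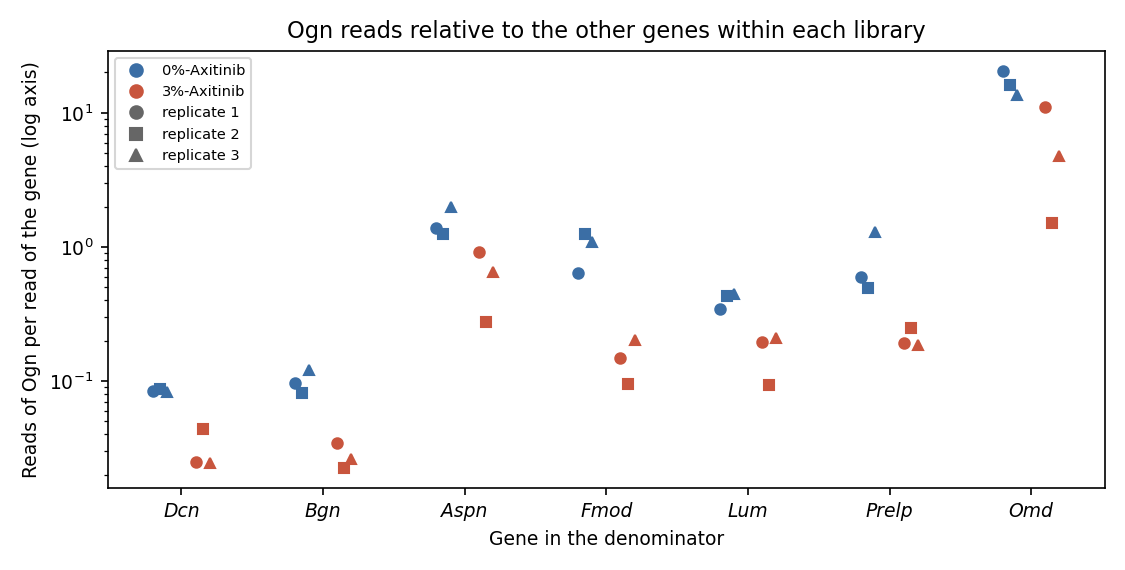
Reads of Ogn per read of each of 7 other SLRP genes (log axis) in the libraries of the 0%-Axitinib (blue) and 3%-Axitinib (red) groups, with marker shapes for the replicates. For each gene in the denominator, the 3 red points lie below the 3 blue points, most tightly grouped in blue for Dcn (0.0843, 0.0867 and 0.0826).

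Of the 28 pairs among these 8 members, the groups were apart for 9 pairs, or 32.1%, against 30.5% of all pairs of tested genes of at least 1 CPM, which is close to the background. Ogn was part of 7 of the 9 pairs. The other pairs were Fmod with Lum and Fmod with Aspn. Reads of Fmod per read of Lum were 0.538, 0.344 and 0.414 in the 0%-Axitinib group and 1.32, 0.985 and 1.03 in the 3%-Axitinib group, so Lum outnumbered Fmod in every 0%-Axitinib library and the genes were close to equal in the 3%-Axitinib libraries. Per read of Aspn, Fmod had 2.18, 1.00 and 1.84 reads against 6.25, 2.89 and 3.22.

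In the summed CPM per kb of the family, which was 1413, 769 and 489.8 in the 0%-Axitinib replicates and 1603, 2008 and 1229 in the 3%-Axitinib replicates, the share of Ogn was 5.92%, 6.00% and 7.13% against 2.16%, 1.76% and 2.02%. The share of Fmod was 7.20%, 3.74% and 5.11% against 11.3%, 14.4% and 7.71%. For both genes the groups were apart, in opposite directions. Dcn took 33.1% ± 4.23 and 30.6% ± 11.2, Bgn 27.2% ± 3.33 and 30.5% ± 3.76, and Lum 16.5% ± 1.72 and 13.8% ± 5.21 of the sum without and with axitinib, differences smaller than the larger SD. Shares of a sum depend on each other, and no test was made of them.

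**Figure D3:**
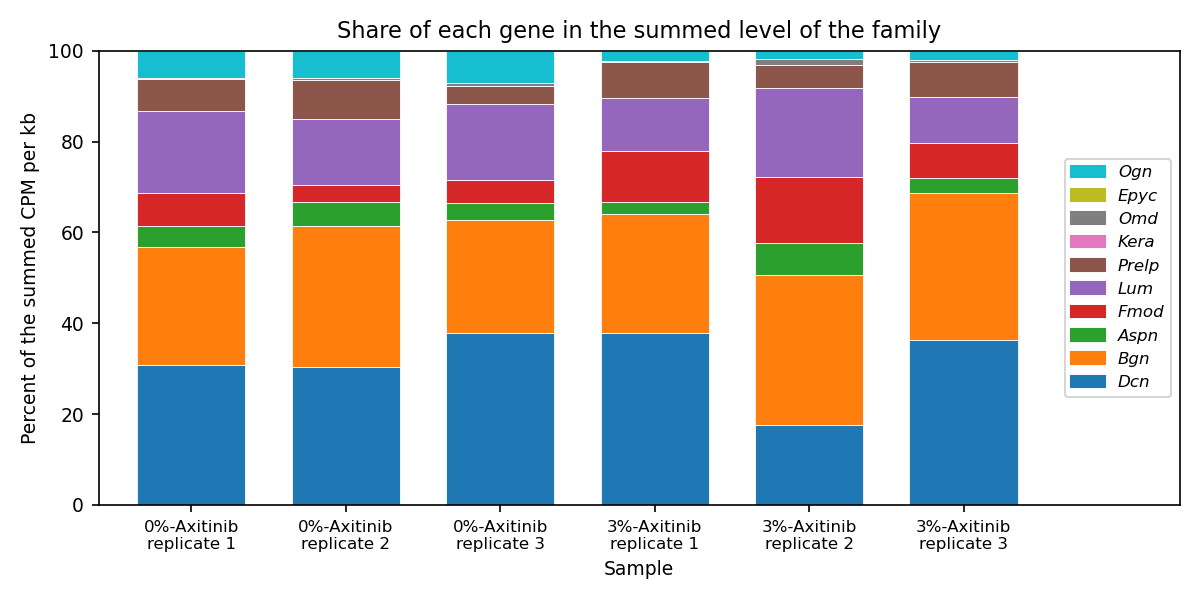
Share of each SLRP gene in the summed CPM per kb of merged exons (percent, stacked to 100) in each of the 6 samples, with a color for each gene. Ogn takes between 5.92% and 7.13% in the 0%-Axitinib samples and between 1.76% and 2.16% in the 3%-Axitinib samples, and Fmod is wider in every 3%-Axitinib sample.

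Most members lie in 3 clusters of the genome (GRCm38). Dcn (chr10:97479609-97518143), Lum (chr10:97565128-97572703), Kera (chr10:97606879-97613692) and Epyc (chr10:97644068-97682454) follow each other on the plus strand of chromosome 10, with 46.984, 34.175 and 30.375 kb between them. Dcn was among the 2 members of highest level per kb in both groups, and Kera and Epyc were the lowest members in both. Prelp (chr1:133910304-133921414, minus strand) and Fmod (chr1:134037254-134048277, plus strand) lie 115.839 kb apart on chromosome 1, with another SLRP gene, Optc, 2.304 kb from Prelp. Bgn (chrX:73483602-73495933) stands alone.

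Aspn (chr13:49544443-49567565), Omd (chr13:49582462-49592822) and Ogn (chr13:49608046-49624501) lie on the plus strand of chromosome 13, with 14.896 kb from Aspn to Omd and 15.223 kb from Omd to Ogn, and Ecm2 lies 11.653 kb before Aspn. All of them lie within the span of Cenpp on the other strand, whose exons share 7 bases with those of Aspn and none with those of Omd or Ogn. Within this cluster the log2 fold changes were 0.13 for Ecm2 (SE 0.32), 0.84 for Aspn, 1.75 for Omd and -0.80 for Ogn. For each read of Ogn there were 0.0484, 0.0616 and 0.0739 reads of Omd in the 0%-Axitinib replicates and 0.0905, 0.664 and 0.211 in the 3%-Axitinib replicates. Omd and Ogn, direct neighbours, thus had log2 fold changes of opposite sign, although that of Omd was 0.41 without 3%-Axitinib replicate 2. The groups were apart in their ratio, by a small margin for 3%-Axitinib replicate 1, as in 30.5% of all pairs of tested genes of at least 1 CPM.

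Of the genes next to the clusters, Btg2 beyond Fmod was lower by the criterion (log2 fold change -1.55, SE 0.40), and Btg1 before Dcn was not (-0.77, SE 0.39), although it was without 0%-Axitinib replicate 1 (-1.01). Atp2b4 beside Optc (-0.08), Cenpp (-0.06), Nol8 beyond Ogn (-0.09) and Haus7 beside Bgn (0.53) did not meet the criterion either, although Haus7 met it without 0%-Axitinib replicate 3 (0.83), and also with 3%-Axitinib replicate 2 left out besides (0.60). Ccer1 beyond Epyc had no read in any sample, which allows up to 3 counts a library, and Tes3-ps and Atp2b3 had too few reads to be tested.

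**Figure D4:**
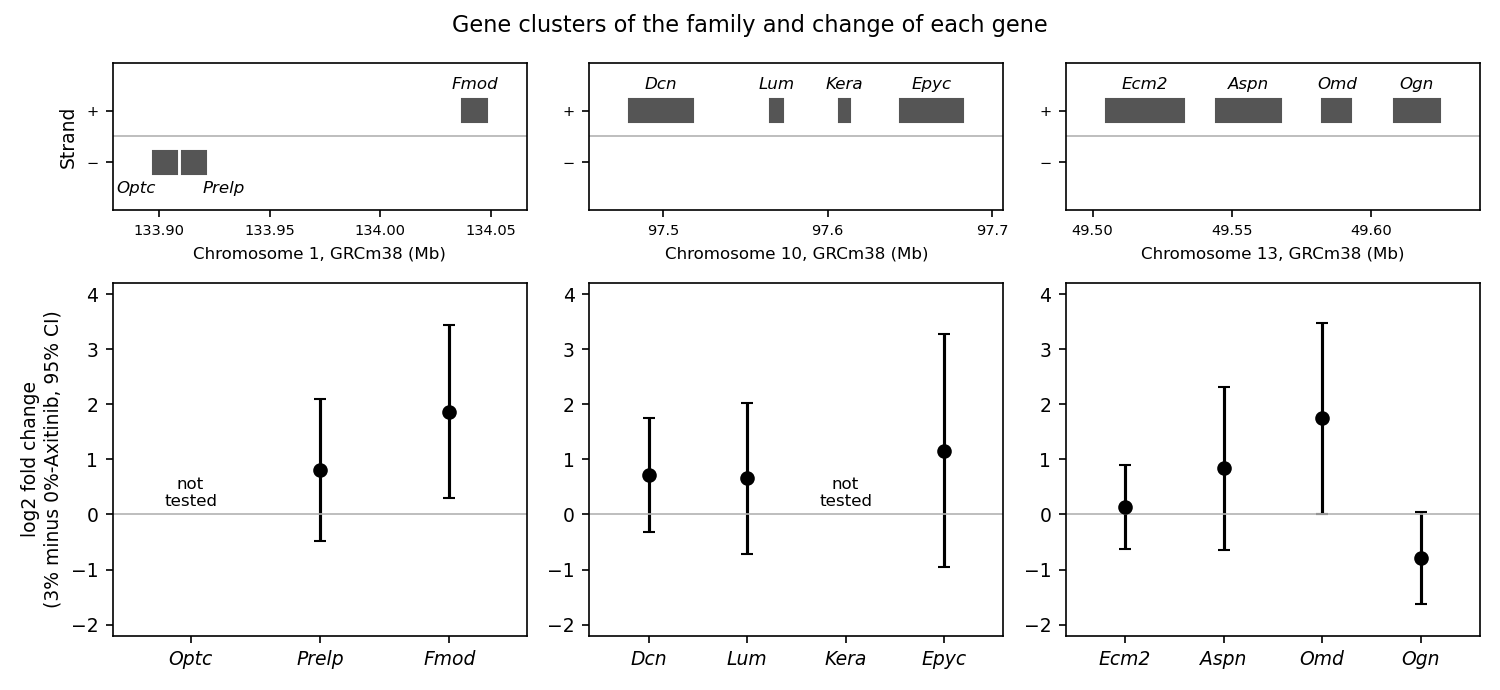
Positions and strands of the SLRP genes in 3 clusters on chromosomes 1, 10 and 13 of GRCm38 (top, Mb) and the log2 fold change of each gene, 3%-Axitinib against 0%-Axitinib, with its 95% confidence interval (bottom). Fmod and Omd have intervals above 0, Ogn is the only gene with a point below 0, and Optc and Kera were not tested.

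The table of RefSeq promoters (GRCm38.p6) held 8 of the 10 members, in 9 entries, and not Dcn or Lum. The 250 bases before the start of transcription are shown for the genes that met the criterion, Fmod and Omd, and for Ogn, the gene of opposite sign. They lie at chr1:134037004-134037253 for Fmod, chr13:49582212-49582461 for Omd and chr13:49607765-49608014 for Ogn, all on the plus strand. Capitals mark matches to the letters TATAAA (known as the TATA box) or TGTGGT (core of RUNX sites), searched on both strands, the latter read here as ACCACA on the reverse strand.
Fmod: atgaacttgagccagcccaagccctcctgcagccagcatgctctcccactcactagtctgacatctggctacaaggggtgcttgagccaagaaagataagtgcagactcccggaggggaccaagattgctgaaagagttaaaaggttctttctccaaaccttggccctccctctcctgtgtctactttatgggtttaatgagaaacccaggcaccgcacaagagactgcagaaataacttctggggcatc
Omd: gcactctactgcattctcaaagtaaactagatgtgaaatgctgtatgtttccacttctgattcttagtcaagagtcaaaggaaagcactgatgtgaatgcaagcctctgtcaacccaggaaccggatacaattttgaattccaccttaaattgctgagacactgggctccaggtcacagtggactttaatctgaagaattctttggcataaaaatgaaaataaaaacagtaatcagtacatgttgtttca
Ogn: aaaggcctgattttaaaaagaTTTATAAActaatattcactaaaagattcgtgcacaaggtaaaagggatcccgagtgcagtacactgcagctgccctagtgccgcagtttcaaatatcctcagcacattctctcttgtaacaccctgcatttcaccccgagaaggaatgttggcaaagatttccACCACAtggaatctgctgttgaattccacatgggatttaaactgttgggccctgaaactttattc

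In the Ogn window, matches to TATAAA on opposite strands overlap and begin 229 and 227 bases before the RefSeq start. The match to TGTGGT begins 65 bases before that start. The Fmod and Omd windows hold neither. The Ogn window ends at chr13:49608014 and the GENCODE position given above starts at chr13:49608046, so the distances hold for the RefSeq start only. For Fmod and Omd the windows end right before the GENCODE start. The letters ACGTG (core of hypoxia response elements) were searched in the same way and are in none of the windows shown. Of all 32851 windows of this length, 12.4% hold TATAAA, 14.0% hold TGTGGT and 16.6% hold ACGTG. Among the members, TATAAA is in the windows of Aspn and Ogn, TGTGGT in that of Ogn, and ACGTG in those of Epyc and Aspn. A match describes the letters only.

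The tested genes outside the family whose log2 CPM ran most like that of a member over the 6 samples were sought for the 8 members of at least 1 CPM, by Pearson's r among 14335 candidates. Dcn ran with Emx2 (r = 0.998) and Hic1 (0.995), and Bgn with P3h3 (0.996), a collagen hydroxylase family gene, and Ext2 (0.994), an enzyme of heparan sulfate synthesis. Aspn ran with Plekhh2 and Mdga1 (both 0.992), Lum with AI606473 and Hoxc6 (both 0.993), and Prelp with Wbscr17 (0.998) and Fut10 (0.995). Fmod ran with Jam3 (0.998) and Ttc23 (0.996), and Omd with As3mt (0.991) and Zc3h12b (0.989). For Ogn the closest genes were Tgfa and Cemip (both 0.972), the lowest r among the 8 members. The 6 points include both groups and share the order of the libraries described above, and each pair is the highest of many candidates over few samples.

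Of 9 other SLRP genes, 6 were tested and 2 were higher by the criterion, with a median log2 fold change of 0.67. Chad, the gene of the cartilage protein chondroadherin, was at 3.86, 5.66 and 0.815 CPM in the 0%-Axitinib group and at 38.8, 262 and 158 CPM in the 3%-Axitinib group, with 5.47 as log2 fold change (SE 0.95, adjusted p = 0.0965 in edgeR's quasi-likelihood test, Benjamini-Hochberg adjustment). The groups were far apart for Chad, more than for any of the 10 members. The other was Tsku, named after its value was seen, while the most abundant, Podn (log2 fold change 0.52), and the lowest, Ecm2, did not meet the criterion. Podn met it without 0%-Axitinib replicate 1 (0.81).

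Over all 19 lists described here, members left aside, edgeR's quasi-likelihood test with Benjamini-Hochberg adjustment gave 0 of 188 tested genes an adjusted p of at most 0.05, 73 (38.8%, against 23.5% over the whole test) reached an unadjusted p of 0.05 or less, and DESeq2's Wald test gave 61 (32.4%, against 12.8%) an adjusted p of at most 0.05. The collagens that SLRPs bind were all tested, and 2 of 14 were higher by the criterion, with a median log2 fold change of 0.91, close to the 0.84 of the members. Col1a1, the most abundant, was at 7130, 3236 and 3181 CPM in the 0%-Axitinib group and at 6774, 30639 and 9337 CPM in the 3%-Axitinib group. Its highest sample was 3%-Axitinib replicate 2, as for Lum, Fmod, Bgn, Aspn and Omd, and its log2 fold change of 1.79 was 0.83 without it. Col1a1 also missed the criterion without 0%-Axitinib replicate 2 (1.59) or 3 (1.58) or 3%-Axitinib replicate 3 (2.04), and with scaling by total counts (1.63), where 1 collagen was higher. In DESeq2's Wald test 4 collagens were higher by the criterion. Col2a1 had the highest log2 fold change (2.53, and 1.70 without that sample, short of the criterion) and Col14a1 the lowest (0.33, and 1.15 without 0%-Axitinib replicate 1, where it met the criterion).

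The lists of enzymes that build the chains of the SLRPs had medians below 0. Of 6 tested genes of the linker, Xylt1, which starts the chain, was lower by the criterion (log2 fold change -1.14, and short of the criterion without 0%-Axitinib replicate 2, at -0.56, or 3%-Axitinib replicate 1, 2 or 3, at -1.10, -1.14 or -1.17), with Xylt2 at 0.44 and the most abundant, B3gat3, at -0.02, and the median was -0.07. Of 16 genes for chondroitin and dermatan sulfate, all tested, 1 was higher and 3 were lower by the criterion, with a median of -0.38. The higher gene, Chpf, was also the most abundant (0.95, SE 0.21), the lower genes were Csgalnact2, Chst3 and Chst7, named after their values were seen, and the lowest log2 fold change was that of Chst13 (-1.82, and 2.07 without 0%-Axitinib replicate 3). Of 10 genes for keratan sulfate, 8 were tested and 1, the sialyltransferase gene St3gal3, was higher by the criterion (0.80, SE 0.21), with a median of -0.50. B4galt1, the most abundant, was at -0.000254, and Chst4 had no read in any sample. Chst2 was the lowest of those with a mean of at least 1 CPM, at -0.71. B3gnt2, below that level, was at -0.86 and did not meet the criterion.

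Among 13 tested of 14 genes that process or cleave SLRPs, 5 were higher (3 with scaling by total counts) and 1 was lower by the criterion, with a median log2 fold change of 0.59. Mmp2, a gelatinase that also cleaves decorin, was at 1272, 739.8 and 434 CPM in the 0%-Axitinib group and at 2728, 2635 and 2757 CPM in the 3%-Axitinib group (log2 fold change 1.73, SE 0.44), with the groups apart. Bmp1, which removes the propeptide of biglycan, its enhancer Pcolce, Mmp14 and Htra1 were the other higher genes, named after their values were seen. Adamts4, an aggrecanase that also cleaves biglycan, was the lower gene (-1.58, SE 0.32), and the most abundant, Mmp12, was at -0.82 (-1.25 without 0%-Axitinib replicate 3, where it met the criterion).

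Of 18 growth factors and receptors that SLRPs bind, 17 were tested, with 2 higher, 3 lower and a median log2 fold change of -0.05. The highest was the connective tissue growth factor gene Ccn2 (listed as Ctgf; 1.65, SE 0.41) and the lowest the VEGF receptor gene Kdr (-2.16, SE 0.43), a receptor that decorin binds. Tgfb2 was also higher and Tgfbr1 and Met, another receptor of decorin, were also lower, named after their values were seen, and the most abundant, Lrp1, was at -0.10. Of 18 genes of large and cell-surface proteoglycans and of link proteins, 17 were tested, with 7 higher, none lower and a median of 0.72. The link protein gene Hapln1, named after its value was seen, was 1 of the 7 (3.34). Prg4, the lubricin gene, had the highest log2 fold change (5.30, SE 1.03), Sdc1 the lowest (-0.21), and Hspg2, the most abundant, was at 0.64 (1.06 without 0%-Axitinib replicate 1, where it met the criterion).

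Fibroblasts are the main source of SLRPs in loose connective tissue. The 12 fibroblast markers, 3 of them collagens described above, summed to 25772, 12658 and 10279 CPM in the 0%-Axitinib replicates and to 22272, 69542 and 25913 CPM in the 3%-Axitinib replicates, with Col1a1 the most abundant and the highest and Dpt the lowest (log2 fold change 0.25). By the criterion 5 were higher (3 with scaling by total counts), with a median of 0.87. The high sum of 3%-Axitinib replicate 2 came from the 3 collagens, with 67273 CPM. The 9 other markers summed to 3425, 1631 and 1634 CPM in the 0%-Axitinib replicates. In the 3%-Axitinib replicates they summed to 4289, 2269 and 4107 CPM. In the 0%-Axitinib group, 7 of the 9 were highest in replicate 1, where all 10 members were highest. In replicate 3 of that group 6 of the 9 were lowest, as were 9 members. In 3%-Axitinib replicate 2, by contrast, 6 of the 9 were lowest of their group and 6 members were highest. The 9 tenocyte and fibrocartilage markers summed to 1451, 867 and 572 CPM and to 1632, 2225 and 1138 CPM, the most abundant being Col12a1 (0.72, and 1.42 without 0%-Axitinib replicate 1, where it met the criterion), with 1 gene higher, Scx (1.45), a median of 0.72 and Tnmd the lowest (0.26). Without any of 5 samples, all but 3%-Axitinib replicate 3, Scx fell short of the criterion, with log2 fold changes from 1.10 to 1.65, and with scaling by total counts it did so too (1.34). The part of these cells in the values of the members was not tested.

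Chondrocytes express Fmod, Prelp and Epyc as well. Of 14 chondrocyte markers 12 were tested, 7 were higher and none was lower by the criterion, with a median log2 fold change of 2.29. They summed to 115, 109 and 202 CPM in the 0%-Axitinib group and to 196, 1030 and 451 CPM in the 3%-Axitinib group, with Col2a1 the most abundant and Snorc (listed as 3110079O15Rik) the highest at 5.43. Col11a1 was the lowest of those with a mean of at least 1 CPM, at 0.44. Cnmd (listed as Lect1), below that level, was at 0.37. Matn1 and Matn3 were near the limit of detection in every sample. The sum was highest in 3%-Axitinib replicate 2, as was Fmod, and the part of these cells in the result of Fmod was not tested. Whether the reads of these markers came from the mouse or from the rabbit graft was not tested either.

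Other cell types moved in both directions. Of 16 skeletal muscle markers 15 were tested and 13 were higher, with a median log2 fold change of 6.77, Acta1 the most abundant (7.35), Mb the highest (8.99) and Casq1 the lowest (3.37). Acta1 did not meet the criterion with all samples in edgeR's test, and met it without 0%-Axitinib replicate 1 (13.39) or 3%-Axitinib replicate 2 (7.90), with no filter (7.29) and in DESeq2's Wald test (7.35). Casq1 missed the criterion without 0%-Axitinib replicate 2 (2.90) or 3 (3.28) or 3%-Axitinib replicate 1 (2.19) or 3 (3.50). Of 10 endothelial markers, 8 were lower, with a median of -1.30, sums of 1149, 715 and 1098 CPM against 326, 469.8 and 534 CPM, Plvap the most abundant and the highest (-0.39) and Cldn5 the lowest (-2.38). Ogn, which vessel walls express, and the endothelial sum were both lower in the means of the 3%-Axitinib group, and the part of vessels in the Ogn values was not tested. Of 7 mural markers 3 were lower, with a median of 0.09, sums of 749, 470.4 and 539 CPM against 432, 641 and 422 CPM, Pdgfrb the most abundant (0.09), Myh11 the highest (1.01) and Rgs5 the lowest (-2.22).

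Of 10 leukocyte and macrophage markers 9 were tested and 3 were lower. Their median log2 fold change was -0.96 (-0.39 without 0%-Axitinib replicate 3), Lyz2 the most abundant and the highest (0.21) and Cd79a the lowest (-5.92). Cd79a was at -1.80 without 0%-Axitinib replicate 3, and at -5.81 and short of the criterion without 3%-Axitinib replicate 3, and DESeq2's Wald test gave it no p-value. Of 7 adipocyte markers 3 were lower, with a median of -1.22 (-2.88 without 3%-Axitinib replicate 1), Fabp4 the most abundant (-1.22) and Lipe the highest (-0.40). Adipoq was the lowest of those with a mean of at least 1 CPM (-1.67, and -3.53 without 3%-Axitinib replicate 1, where it met the criterion). Lep, below that level and named after its value was seen, was lower still (-5.58, SE 0.97) and met the criterion. Of 6 keratinocyte markers 3 were tested and Krt10, named after its value was seen, was lower, with a median of -3.93 that was 0.52 without 0%-Axitinib replicate 2, Krt1 the most abundant, Trp63 the highest (-0.69) and Dsp the lowest (-4.29). Dsp did not meet the criterion with all samples in edgeR's test, and met it without 0%-Axitinib replicate 1 (-4.87) or 3 (-4.78), and with no filter or in DESeq2's Wald test (both -4.31). The 7 Schwann and perineurial markers had a median of 1.19 (2.13 without 0%-Axitinib replicate 1), with Mbp the most abundant (1.19, and 2.13 without 0%-Axitinib replicate 1, where it met the criterion, as it did in DESeq2's Wald test) and Cldn1 the lowest (0.14). No gene of a marker list was without reads in all 6 samples.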

How the data were processed

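The authors filtered the reads of poly(A) libraries, mapped them with STAR 2.5.2b to the mouse genome (GRCm38, mm10) and deposited raw read counts per gene symbol, without normalization. The annotation release and the strand setting of the counting are not given in the sources used here. The 4 lines of reads given to no gene (3.84% to 48.4% unmapped, 2.71% to 6.65% at several places, 3.17% to 6.14% outside genes and 3.55% to 5.74% ambiguous) were left out of library sizes and tests. Counts were tested in R 4.3.3 with edgeR 4.0.16 (filterByExpr with a minimum count of 10 and a minimum total of 15, TMM, quasi-likelihood test, Benjamini-Hochberg adjustment over all tested genes), 3%-Axitinib against 0%-Axitinib, 3 samples each. Intervals are at 95% and, like the limit of detection, those of read counts cover counting error only. Lengths and positions came from the GENCODE annotation of GRCm38.

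The members and lists were chosen with earlier results of these data known. Named from each list were the most abundant gene and, among tested genes with a mean of at least 1 CPM, the genes with the highest and lowest log2 fold change, besides marker genes without reads, genes next to the members and the 2 genes most like each member. A result that this rule names is not reported here. Alternatives were other scalings, DESeq2 1.42.0, no filter, the replicate number as a block, transcript lengths and samples left out. The tests were checked on simulated counts. Python 3.11.15 and matplotlib 3.10.9 made the figures.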

Additional observations from a re-analysis of the deposited data

How the results depend on the processing

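The 9 tested members kept the sign of their log2 fold change under total counts, DESeq2's size factors, DESeq2's Wald test, TMM without the skeletal muscle genes, no filter and the replicate block. With samples left out, Aspn and Lum did not. The depth limits Kera and Epyc, which had at most 25 reads in a sample. With 3 samples a group, each library weighed on every call, and the cause of the changes given here was not tested.

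With each sample left out, between 0 and 4 members met the criterion, against 2 with all samples and 4 in DESeq2's Wald test. The count was 0 without 0%-Axitinib replicate 2 or 3%-Axitinib replicate 2, and 4 without 0%-Axitinib replicate 1. Without 0%-Axitinib replicate 2, 1055 of 15871 tested genes were higher and 1601 lower by the criterion. Without 3%-Axitinib replicate 2 these were 1270 and 1479 of 15940, and without 0%-Axitinib replicate 1 they were 1542 and 1908 of 15868. With all samples they were 1456 and 1785 of 15257 in edgeR's test, and 1627 and 1961 in DESeq2's. An adjusted p of at most 0.05 (Benjamini-Hochberg) was found for this many genes: 1 in edgeR's quasi-likelihood test, 1960 in DESeq2's Wald test, 15 with no filter and, with each sample left out, between 0 (in 4 of these 6 fits, which had 2417 to 3513 genes at an unadjusted p of 0.05 or less) and 1252 (without 0%-Axitinib replicate 3). The labels do not say that equal replicate numbers pair the samples. The deviations of equally numbered samples from their group means had correlations of 0.17, -0.12 and -0.19. Replicates 2 and 3 of the 0%-Axitinib group were most alike to a sample of another number, and replicate 1 to 3%-Axitinib replicate 1. With 3 samples a group, these values cannot decide whether samples were paired. With the replicate block, 2 genes reached an adjusted p of 0.05 or less, and 1249 of 15257 tested genes were higher and 1354 lower by the criterion. Of the members, 2 met it, Fmod and Ogn (log2 fold change -0.71), but not Omd (1.22). The block turned the log2 fold change of B3gat3 to 0.021, Chst13 to 0.20, Lrp1 to 0.23, Trp63 to 0.85 and Cenpp to 0.031, and the median of the leukocyte list was -0.41. The criterion was also missed with the block by Col1a1 (1.57), Scx (1.28), Xylt1 (-0.95) and Cd79a (-3.86), while Adipoq (-2.66), Myh11 (0.89) and Mbp (1.52) met it. It was met by 1 collagen, 2 higher processing genes, 2 higher genes for chondroitin and dermatan sulfate, 3 fibroblast markers, 1 lower leukocyte marker and 0 keratinocyte markers.

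Leaving out 0%-Axitinib replicate 3 and 3%-Axitinib replicate 2 together was chosen after seeing the data. Then 1572 genes reached an adjusted p of 0.05 or less, and 2346 of 15477 tested genes were higher and 2239 lower by the criterion. Of the members 1, Ogn (-1.13), met the criterion, with Fmod at 1.08 and Omd at 0.29. The log2 fold change turned to -0.36 for Aspn, -0.24 for Lum, -0.18 for Ecm2, 0.28 for B3gat3, 0.035 for B4galt1, -0.66 for Col11a1, 1.78 for Bglap, -0.24 for Pdgfrb and 0.17 for Cenpp. The median was -0.0086 for the keratan sulfate list and -0.24 for the leukocyte list. With total counts Ecm2 was at -0.0051 and Pdgfrb at -0.048, and with TMM without the skeletal muscle genes B4galt1 was at 0.000307.

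With each sample left out, log2 fold changes that changed sign ranged from -0.024 to 1.32 for Aspn, -0.11 to 0.51 for Ecm2, -0.062 to 1.15 for Col14a1, -0.15 to 0.25 for B3gat3, -2.93 to 2.07 for Chst13, -0.095 to 0.056 for B4galt1, -0.57 to 0.42 for Lrp1, -0.46 to 0.24 for Sdc1, -0.036 to 0.92 for Dpt, -0.33 to 0.76 for Tnmd, -0.45 to 0.95 for Col11a1, -1.84 to 2.30 for Bglap, -0.22 to 0.45 for Lyz2, -0.12 to 0.29 for Pdgfrb, -1.31 to 2.25 for Trp63, -0.081 to 0.30 for Cldn1, -0.26 to 0.057 for Atp2b4, -0.96 to 1.08 for Cenpp and -0.28 to 0.021 for Nol8. List medians ranged from -1.19 to -0.39 (leukocyte), -2.88 to -1.08 (adipocyte), -4.50 to 0.52 (keratinocyte) and 0.83 to 2.13 (Schwann). The number of higher genes ranged from 2 to 4 for the other SLRP list, 0 to 6 for the collagens, 2 to 6 for the processing genes, 1 to 5 for the fibroblast list, 0 to 2 for the tenocyte list and 1 to 3 for the growth factors and receptors. The number of lower genes ranged from 0 to 2 for the linker and the keratinocyte lists, 1 to 4 for the chondroitin and dermatan sulfate and the leukocyte lists and 3 to 6 for the adipocyte list.

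Per kb of the longest transcript, shares of the family's sum were 28.7% for Dcn, 43.3% for Bgn, 3.23% for Aspn, 11.5% for Lum and 4.43% for Ogn in the 0%-Axitinib group, and 47.3% for Bgn, 4.67% for Prelp and 1.34% for Ogn in the 3%-Axitinib group.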
